A study of Mus musculus with 6 samples.

Results

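Brain vessels were followed through 10 genes: Cldn5, Pecam1, Cdh5, Kdr, Flt1, Tek, Slc2a1 and Abcb1a, which mark endothelial cells, and Pdgfrb and Rgs5, which mark pericytes. They were taken by symbol, and all 10 were found among the 17348 genes of the deposited table. The samples were whole cortices of E18.5 mouse embryos, shortly before birth, sequenced as 3 control and 3 Ybx1 conditional knockout (cKO) libraries. The cKO embryos carried Nestin-Cre and 2 floxed Ybx1 alleles (Nestin-Cre, Ybx1 fl/fl), from which exons of Ybx1, an RNA-binding protein that reads the m5C mark on mRNA, are removed. The control embryos are labelled WT, and the study describes its controls as Ybx1 fl/fl mice without Cre and, for RNA-seq, as wild type littermates. Nestin-Cre acts in neural progenitors and their descendants, and whether it acted in vessel cells was not measured here. Nothing in the labels ties a library to a single embryo, so p-values measure the spread between these libraries.

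Brain endothelial cells form the blood-brain barrier: tight junctions seal the spaces between cells, transporters carry nutrients in, and efflux pumps return many drugs to the blood. VEGF and angiopoietins, acting through receptor tyrosine kinases on the endothelium, drive vessels into the developing cortex and stabilise them. Pericytes wrap the capillary wall, share its basement membrane and are held there by PDGF signalling from the endothelium.

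In these cortices no vessel gene passed the test between genotypes. Of the 10, 0 had an adjusted p under 0.05 (edgeR quasi-likelihood test, Benjamini-Hochberg adjustment over all genes), against 10 of the 13570 genes tested, or 0.0737%. DESeq2 also gave 0, and 1 at an unadjusted p under 0.05, where its share of all genes was not taken. Most fitted values were above 0: 9 of 10 fold changes were, as were 50.6% of those of all genes, and their median log2 fold change (cKO over control) was 0.23 against 0.0027 for all genes. An unadjusted p under 0.05 was reached by Cdh5 and Pdgfrb, both higher in cKO, against 3.14% of all genes higher and 3.49% lower at that p. In these same genes every cKO library lay above every control library, which held for 7.35% of all genes, and no vessel gene had every cKO library below every control, which held for 6.93%. Since the RNA came from whole tissue, a change in the number of vessel cells and a change in RNA per cell cannot be told apart.

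Some properties of the libraries touched these values. Totals were 15091951 to 16885451 estimated counts per library, and 3 counts, taken as the floor, were 0.178 to 0.199 CPM (counts scaled by library size). Ybx1 itself was at 1015, 1297 and 956 CPM in the controls and 24.0, 24.8 and 24.9 CPM in the cKO libraries (log2 fold change -5.47, SE 0.164, adjusted p = 6.95e-07). Control replicate 2 stood apart from the other controls: its deviations from the group mean had r = -0.60 with the log2 transcript length across genes, against 0.37 and 0.50 in the other controls and -0.058 to 0.078 in the cKO libraries. The 4 Y-linked genes measured had at least 352 counts in every control and at most 22 in every cKO library, so the sex of the embryos and the genotype cannot be told apart. Sequencing was in 3 batches per the series' description, and the labels assign no library to a batch.

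**Figure D1:**
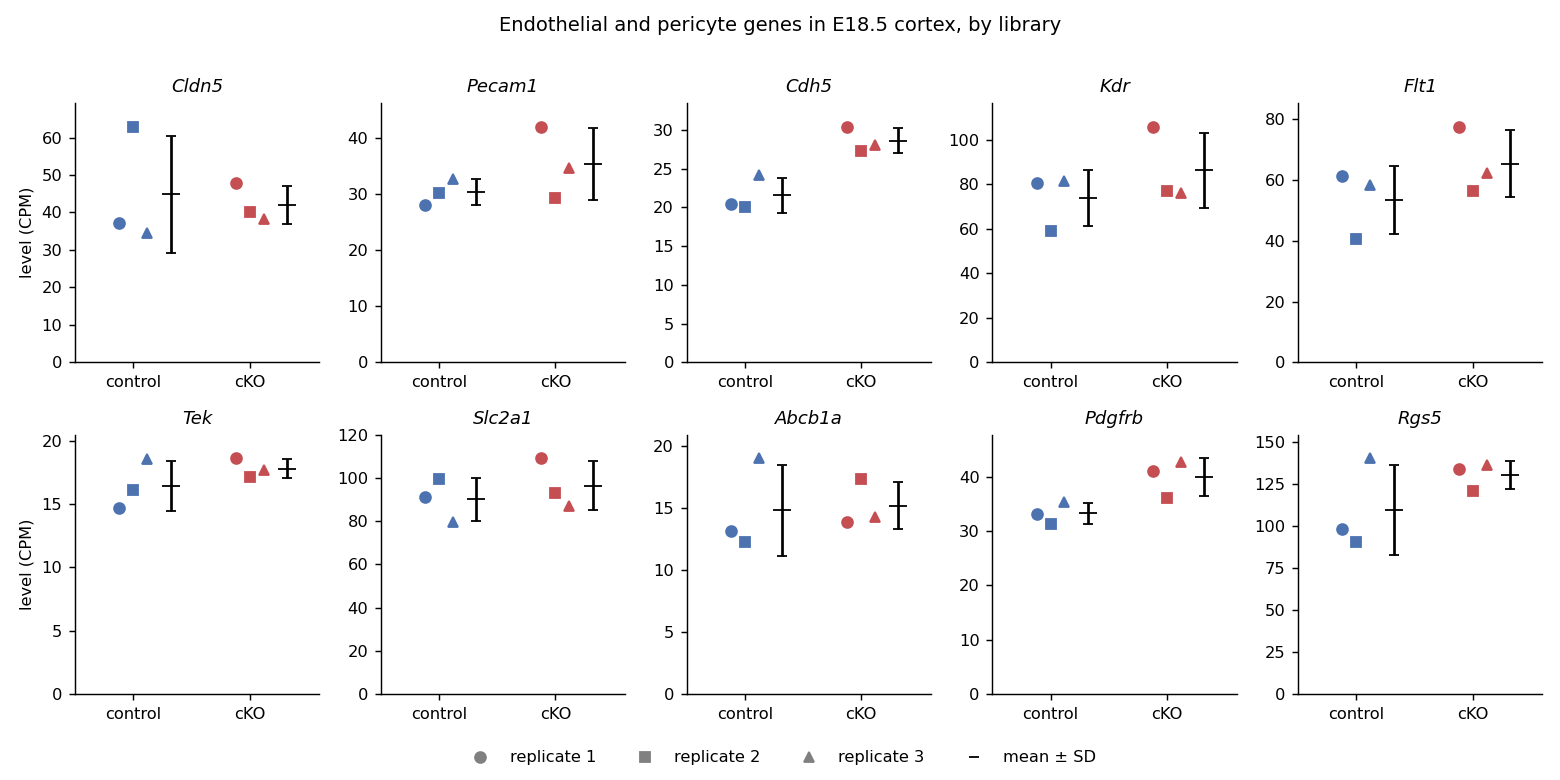
Level of each of the 10 vessel genes (CPM, vertical axis from 0) in the 3 control (blue) and 3 cKO (red) libraries, with marker shapes for replicate numbers and bars for the mean ± SD (n = 3). Only Cdh5 and Pdgfrb have all cKO points above all control points, and cKO replicate 1 is the highest library for 6 genes.

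Compared per length, as the authors' TPM, the 10 genes fell into the same order in both groups. In controls Slc2a1 (84.3 ± 4.08 TPM, SD, n = 3), Cldn5 (83.9 ± 20.7) and Rgs5 (62.6 ± 19.5) were the most abundant, and their ranges over libraries overlapped from each neighbour to the next. Kdr followed at 28.2 ± 6.92 TPM, below the whole range of Rgs5, and then Pecam1, Flt1, Pdgfrb and Cdh5 down to 12.5 ± 2.26 TPM, again with overlapping neighbours. Tek (8.0 ± 1.41 TPM) and Abcb1a (6.53 ± 2.09 TPM) were lowest and overlapped each other. In cKO the range of Abcb1a (7.31 ± 0.879 TPM) lay below that of Tek (9.54 ± 0.447 TPM), and that of Pdgfrb (18.6 ± 1.77 TPM) below that of Flt1 (25.1 ± 3.88 TPM). All other pairs of neighbours that overlapped in controls also overlapped in cKO. All 8 endothelial genes and both pericyte genes were far above the floor in every library, so both cell types were represented in each cortex.

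Among junction genes, Cdh5, which encodes VE-cadherin of the endothelial adherens junction, had the largest difference of the 10. It lay on chromosome 8 (104101613 to 104144504, GRCm38) and was at 20.4, 20.02 and 24.2 CPM in the controls and 30.4, 27.3 and 28.1 CPM in the cKO libraries. The groups did not overlap, and the cKO level was 1.33-fold the control level. The log2 fold change was 0.41 (SE 0.126, 95% interval 0.13 to 0.70, unadjusted p = 0.00988), which did not pass adjustment in edgeR's quasi-likelihood test (adjusted p = 0.514). Over all 14 alternatives its log2 fold change stayed between 0.36 and 0.50, and the smallest adjusted p that edgeR gave it was 0.12. The exact two-sided permutation p for the single gene was 0.1, the smallest that 3 libraries against 3 allow.

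Pecam1, an adhesion molecule of the endothelial surface, was at 28.2, 30.2 and 32.7 CPM in the controls and 42.1, 29.4 and 34.7 CPM in cKO. The cKO values spread on both sides of the highest control, and the log2 fold change was 0.22 (95% interval -0.11 to 0.56), or 0.08 without cKO replicate 1 and 0.34 without cKO replicate 2. Cldn5, the main claudin of the barrier's tight junctions, was at 37.1, 62.9 and 34.4 CPM in the controls and 47.8, 40.0 and 38.3 CPM in cKO. Control replicate 2 was the highest of all 6 libraries, while the other controls were the lowest. The log2 fold change of Cldn5 was -0.09 (95% interval -0.59 to 0.41) with all libraries and -0.25 without control replicate 3, but 0.23 without control replicate 2, where every cKO library lay above both remaining controls. By TPM the mean of Cldn5 was higher in cKO (89.2 ± 11.3 against 83.9 ± 20.7), by CPM it was lower (42.0 ± 5.07 against 44.8 ± 15.7). By FPKM the mean was also lower in cKO (38.4 ± 5.33 against 39.7 ± 14.5). At 1416 bases its longest transcript was the shortest of the 10, and the part of transcript length in the value of replicate 2 was not tested for Cldn5 alone.

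Kdr and Flt1 encode the VEGF receptors VEGFR2, which carries most of the growth signal, and VEGFR1, which binds VEGF and limits it. Both genes varied together from library to library (r = 0.95 between their deviations from the group mean, the highest of 45 pairs, 6 libraries that share depth and preparation). The promoters of both are shown, and their part in this likeness was not tested. They span 250 bases before to 50 after the start in RefSeq (GRCm38.p6), at chr5:75978406-75978705 for Kdr and chr5:147725962-147726261 for Flt1, both on the minus strand and printed in the sense of the gene. Capitals mark GGAAGT on either strand, a core bound by ETS factors, the transcription factor family of Erg and Fli1 in endothelium.
Kdr: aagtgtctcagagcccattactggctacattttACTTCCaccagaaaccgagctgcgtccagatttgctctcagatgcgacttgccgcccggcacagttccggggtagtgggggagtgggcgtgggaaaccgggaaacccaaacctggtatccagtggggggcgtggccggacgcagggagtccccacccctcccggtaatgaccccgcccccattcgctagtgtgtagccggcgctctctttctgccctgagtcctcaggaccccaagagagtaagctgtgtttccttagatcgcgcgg
Flt1: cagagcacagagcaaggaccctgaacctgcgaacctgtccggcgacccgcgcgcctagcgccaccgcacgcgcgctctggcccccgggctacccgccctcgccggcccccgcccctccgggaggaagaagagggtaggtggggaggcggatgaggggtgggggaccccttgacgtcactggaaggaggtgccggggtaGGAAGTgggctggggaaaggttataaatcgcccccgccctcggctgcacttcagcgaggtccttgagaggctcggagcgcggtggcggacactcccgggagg
The match began at position -217 from the start of Kdr, where it reads in reverse complement, and at -52 from that of Flt1. Of the 7 vessel genes with an entry in the RefSeq table, these 2 held GGAAGT, as did 23.8% of 32851 promoters of the same length. Pecam1, Cdh5 and Pdgfrb had no entry.

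Kdr was at 80.4, 59.1 and 81.4 CPM in the controls and 106, 76.9 and 76.1 CPM in the cKO libraries. Flt1 was at 61.5, 40.6 and 58.4 CPM in the controls and 77.6, 56.3 and 62.5 CPM in cKO. In both genes cKO replicate 1 was highest, control replicate 2 was lowest, and the other 4 libraries lay close together, between 76.1 and 81.4 CPM for Kdr and between 56.3 and 62.5 CPM for Flt1. The log2 fold changes were 0.23 for Kdr (95% interval -0.16 to 0.62) and 0.29 for Flt1 (95% interval -0.11 to 0.70), and they were 0.09 and 0.13 without control replicate 2 and 0.06 and 0.15 without cKO replicate 1. Both genes have long transcripts (5924 and 6895 bases), and with the length and GC correction their log2 fold changes were 0.16 and 0.22. The part of transcript length in the low values of control replicate 2 was not tested for these genes. Tek, the angiopoietin receptor Tie2, was at 14.7, 16.1 and 18.6 CPM in the controls and 18.6, 17.1 and 17.7 CPM in cKO. The groups overlapped, and the log2 fold change was 0.12 (95% interval -0.19 to 0.42), with 0.04 without control replicate 1 and 0.21 without control replicate 3.

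Of the barrier transporters, Slc2a1 encodes GLUT1, the glucose carrier of the barrier endothelium. It was at 91.3, 99.6 and 79.8 CPM in the controls and 109, 93.2 and 87.2 CPM in cKO, with interleaved groups and a log2 fold change of 0.10 (95% interval -0.19 to 0.39). Single libraries moved this value to 0.00099 (without cKO replicate 1), 0.017 (without control replicate 3), 0.17 (without control replicate 2) and 0.16 (without cKO replicate 3). By TPM the groups of Slc2a1 did not overlap (80.2 to 88.3 in controls, 90.6 to 114 in cKO). By FPKM they overlapped, as by CPM (34.1 to 44.1 in controls, 38.7 to 49.7 in cKO). The share of all genes without overlap by TPM was not taken. Slc2a1 lies 140 kb from the deleted gene on chromosome 4. Of 9 annotated genes between Slc2a1 and Ybx1, 7 were tested. In edgeR's test 3 of them were higher in cKO with an adjusted p under 0.05 (0.0737% of all genes in either direction). These were Ermap, Tmem269 and Cldn19, with log2 fold changes of 3.36, 3.52 and 3.51. The others did not pass: P3h1 was at -1.40, Svbp at -0.65, Zfp691 at -0.08 and AU022252 at 0.33. Slc2a1 is a known hypoxia target, and its promoter is shown for the letters ACGTG in capitals, at position -36 from its start (RefSeq, GRCm38.p6, chr4:119108495-119108794, plus strand). ACGTG is 1 form of the core of the hypoxia response element, and the other form, GCGTG, was neither searched nor marked.
Slc2a1: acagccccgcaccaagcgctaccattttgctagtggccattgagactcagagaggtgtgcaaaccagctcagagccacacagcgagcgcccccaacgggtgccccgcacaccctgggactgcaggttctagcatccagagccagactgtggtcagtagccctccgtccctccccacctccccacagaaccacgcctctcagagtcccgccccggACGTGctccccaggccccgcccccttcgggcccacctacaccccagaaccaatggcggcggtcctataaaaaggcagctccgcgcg
It was the only one of the 7 vessel promoters with ACGTG, which 19.6% of all promoters held on either strand. Abcb1a, the efflux pump P-glycoprotein, was at 13.1, 12.2 and 19.0 CPM in the controls and 13.9, 17.3 and 14.2 CPM in cKO. The cKO libraries lay inside the control range, and the log2 fold change of 0.04 (95% interval -0.40 to 0.47) turned to -0.08 without control replicate 2. Abcb1a has a close paralogue, Abcb1b, with which reads may be shared, and its counts were the only ones of the 10 that were not whole numbers.

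Both pericyte genes had higher means in cKO. Pdgfrb, the PDGF receptor that holds pericytes at the vessel, was at 33.1, 31.4 and 35.4 CPM in the controls and 41.2, 36.1 and 42.7 CPM in cKO. The groups did not overlap, though cKO replicate 2 was close to control replicate 3. The log2 fold change was 0.27 (SE 0.114, 95% interval 0.01 to 0.52, unadjusted p = 0.0448), with an adjusted p of 0.731 in edgeR's test and an exact permutation p of 0.1. Without control replicate 2 the value was 0.23 with an unadjusted p of 0.0504 in edgeR's test. Rgs5, a regulator of G-protein signalling enriched in pericytes, was at 97.9, 90.6 and 140.2 CPM in the controls and 134, 120.4 and 136 CPM in cKO. Control replicate 3 was the highest library of all for Rgs5, and the log2 fold change was 0.25 (95% interval -0.12 to 0.62), with 0.13 without control replicate 2 and 0.47 without control replicate 3.

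The balance of both cell types within a library was taken as the log2 ratio of Pdgfrb and Rgs5 to the sum of Cldn5, Pecam1, Cdh5, Kdr, Flt1 and Tek. It was -0.89, -0.91 and -0.51 in the controls and -0.88, -0.66 and -0.52 in the cKO libraries. The groups overlapped, and the difference of 0.08 had an exact two-sided permutation p of 0.7.

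**Figure D2:**
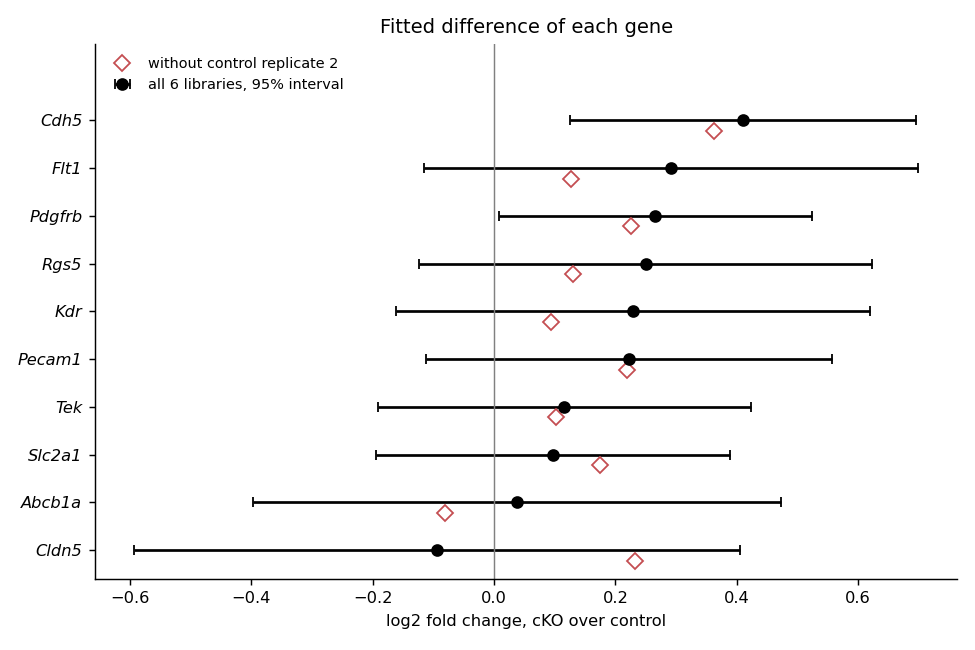
Log2 fold change of each vessel gene, cKO over control (horizontal axis), from all 6 libraries with 95% intervals (black) and without control replicate 2 (red diamonds). The intervals of Cdh5 and Pdgfrb lie above 0, and the values of Cldn5 and Abcb1a change sign without that library.

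Single libraries moved the group as a whole. Control replicate 2 was the lowest of the 6 libraries in 6 genes (Cdh5, Kdr, Flt1, Abcb1a, Pdgfrb and Rgs5) and cKO replicate 1 the highest in 6 (Pecam1, Cdh5, Kdr, Flt1, Tek and Slc2a1). The shares of all genes lowest or highest in these libraries were not taken. Without control replicate 2 the median log2 fold change of the 10 was 0.15, 9 were above 0 (51.1% of all genes), 1 had an unadjusted p under 0.05 (5.51% of all genes higher) and 3 had groups that did not overlap (15% of all genes higher). Without cKO replicate 1 the median was 0.09, 9 of 10 were above 0 and 1 had an unadjusted p under 0.05 (1.66% of all genes higher). No vessel gene had an adjusted p under 0.05 in any of the 14 alternatives.

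With the group means removed, the 10 vessel genes varied together between libraries only in part. Of the 45 pairs among the 10 genes, 31 had a correlation above 0 over the 6 libraries, with a median r of 0.49. The same values for pairs of other genes were not taken. Cdh5 and Rgs5 (0.92) and Cdh5 and Tek (0.89) followed Kdr and Flt1 as the most alike, while Cldn5 was most like Slc2a1 (0.80). Against the mean of the other 9, Cdh5 (0.91) and Pecam1 (0.83) were the closest, Slc2a1 (-0.085) and Abcb1a (0.071) were near 0, and Cldn5 was at -0.45. Of 13063 other genes with a mean of at least 1 CPM, those most like the mean of the 10 were Snhg11, Ugcg, Cyp4x1, Eogt and Pabpc4l (r = 0.990 to 0.995). With 6 libraries and the same depth and length differences behind every gene, such values are a description.

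The wider vessel genes were then read in 6 lists, chosen with earlier results of these data known. These lists also hold genes that other cells of the cortex express, among them the hypoxia response genes and the neural ligand Wnt7a. Of 106 tested genes of these lists, 0 had an adjusted p under 0.05 (edgeR) in this fit or in any alternative, 87 were above 0 (50.6% of all genes), 9 were higher (3.14% of all genes) and 1 lower (3.49%) at an unadjusted p under 0.05, and the median log2 fold change was 0.13. Without cKO replicate 1, 67 were above 0, 3 were higher at that p (1.66% of all genes) and the median was 0.07. Without control replicate 2, 14 of 107 were higher at that p (5.51% of all genes). As in the 10 genes, cKO replicate 1 was often the highest library, for 56 of the 114 genes in the table, and the share of all genes was not taken.

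Basement membrane genes, which encode the collagen and laminin sheet that endothelium and pericytes share, had the highest median of the lists, at 0.31. All 10 of 10 were above 0 (50.6% of all genes), 5 were higher at an unadjusted p under 0.05 (3.14% of all genes) and 6 had every cKO library above every control (7.35%). As the lists were chosen with earlier results of these data known, these counts are a description. Col4a1 and Col4a2 encode the chains of collagen IV and start head to head on chromosome 8. Col4a1 was at 218, 213 and 241 CPM in the controls and 279, 286 and 262 CPM in cKO (log2 fold change 0.30, unadjusted p = 0.0199 in edgeR). Col4a2 was at 152, 143 and 167 CPM in the controls and 199, 193 and 184 CPM in cKO (0.32, unadjusted p = 0.0149 in edgeR). Lama5, a laminin chain of mature vessel walls, was at 13.2, 12.2 and 13.5 CPM in the controls and 15.04, 20.1 and 19.0 CPM in cKO (0.48, unadjusted p = 0.0111 in edgeR). In these genes every cKO library was above every control, and their adjusted p-values in edgeR were 0.608, 0.580 and 0.535. Lamb1 at 0.05 and Sparc at 0.17 (0.28 without control replicate 2) were the smallest of the list. The transcripts of the list were long (median of the longest transcripts 6270.5 bases, against 3555 for all genes tested). Control replicate 2 was the lowest library for 8 of the 10 genes, and the share of all genes was not taken. Without that library the median was 0.24 with 5 genes at an unadjusted p under 0.05 (5.51% of all genes higher). With the length and GC correction it was 0.24 with 5 such genes (5.31% of all genes higher). Without cKO replicate 1 it was 0.26 with 2 (1.66% of all genes higher).

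**Figure D3:**
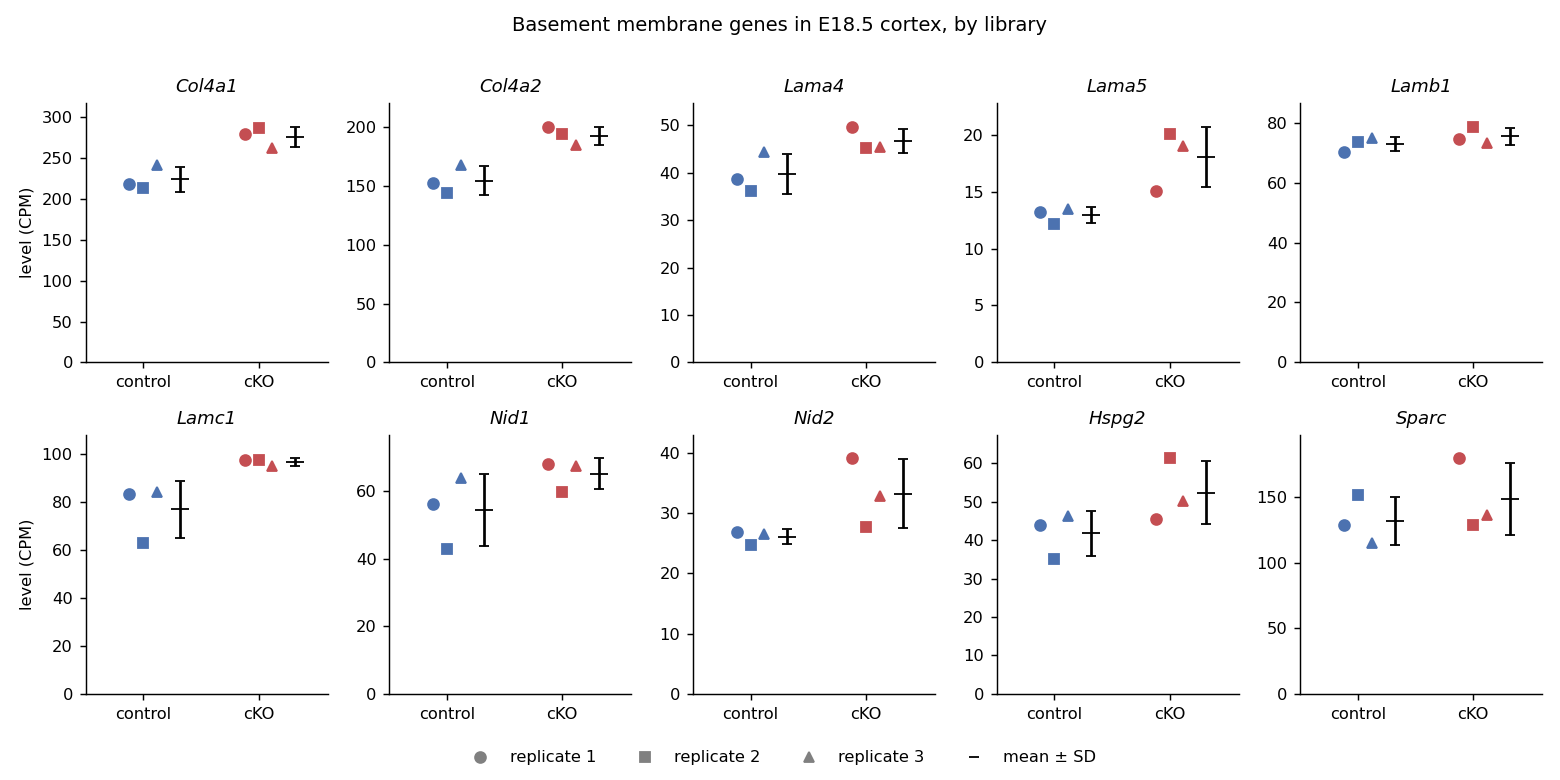
Level of each of 10 basement membrane genes (CPM, vertical axis from 0) in the control (blue) and cKO (red) libraries, with marker shapes for replicate numbers and bars for the mean ± SD (n = 3). Col4a1, Col4a2, Lama4, Lama5, Lamc1 and Nid2 have all cKO points above all control points.

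In the list of endothelial identity and junction genes, 21 of 24 were above 0 (50.6% of all genes) with a median log2 fold change of 0.14. At an unadjusted p under 0.05, 1 was higher, a share near the 3.14% of all genes. That gene was Cd93, a lectin-like receptor of endothelium, at 47.3, 28.9 and 44.3 CPM in the controls and 60.7, 51.3 and 55.7 CPM in cKO (0.48, unadjusted p = 0.0256 in edgeR). Its lowest value was again control replicate 2, and the log2 fold change was 0.29 without it. Next were Mmrn2, its matrix ligand (0.36), and the sialomucin Cd34 (0.25). Without cKO replicate 1, 14 of these 24 genes were above 0 and the median was 0.05.

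Among transporters and Wnt genes of the barrier, 18 of 23 were above 0, the median was 0.10 and none had an unadjusted p under 0.05 in edgeR in either direction. The smallest p-values were those of Tspan12, a norrin co-receptor (0.32), Wnt7a, a neural ligand for barrier endothelium (-0.27, but -0.13 without control replicate 2), and Adgra2, the co-receptor for that ligand (0.23). Without cKO replicate 1 the list had 12 of 23 above 0 and a median of 0.02. Slco1a4, an organic anion carrier of the mature barrier, had at most 1 count in a library and was not tested.

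Of the VEGF, angiopoietin and Notch genes, 16 of 19 were above 0 with a median of 0.15, and 2 were higher at an unadjusted p under 0.05 (3.14% of all genes). Without cKO replicate 1, 12 of 19 were above 0, the median was 0.04 and 0 had an unadjusted p under 0.05, while without control replicate 2 it was reached by 4 (5.51% of all genes). Unc5b, a netrin receptor of sprouting vessels, was at 23.4, 20.4 and 24.5 CPM in the controls and 29.4, 27.6 and 29.2 CPM in cKO (0.34, unadjusted p = 0.0208 in edgeR). Vegfc, a growth factor for the related receptors Flt4 and Kdr, was at 4.33, 5.62 and 3.84 CPM in the controls and 7.86, 6.42 and 5.81 CPM in cKO (0.54, unadjusted p = 0.0308 in edgeR). In both, every cKO library lay above every control (7.35% of all genes), narrowly so in Vegfc. Kcne3, a potassium channel subunit seen in tip cells, had a log2 fold change of 0.89 at 0.678 ± 0.131 CPM in the controls and 1.25 ± 0.620 CPM in cKO, with overlapping groups. Vegfa, the main ligand of Kdr and Flt1, had a value of 0.15 (0.04 without control replicate 2), and like both receptors it was highest in cKO replicate 1 and lowest in control replicate 2.

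Pericyte and smooth muscle genes had 11 of 16 above 0 and a median of 0.10. The 1 gene past an unadjusted p of 0.05 was lower, as were 3.49% of all genes at that p: Foxs1, a forkhead factor of pericytes, was at 0.815, 1.52 and 0.754 CPM in the controls and 0.371, 0.629 and 0.575 CPM in cKO (-0.98, unadjusted p = 0.0369 in edgeR). Every cKO library of Foxs1 lay below every control (6.93% of all genes), its highest library was control replicate 2, and its value without that library was -0.58. Mcam, an adhesion molecule of vessel walls (0.30), and Notch3, the mural cell Notch receptor (0.19, but 0.05 without control replicate 2), came next with overlapping groups. The contractile genes Acta2, Tagln, Myh11 and Cnn1, which define smooth muscle, were too low to be tested.

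Hypoxia response genes, read because oxygen lack induces Slc2a1 and VEGF, had 11 of 14 above 0 and a median of 0.09 (0.14 without control replicate 2). At an unadjusted p under 0.05, 1 gene was higher (3.14% of all genes). Slc2a3, the neuronal glucose carrier GLUT3, was at 51.4, 46.4 and 56.9 CPM in the controls and 71.1, 59.1 and 58.9 CPM in cKO (0.29, unadjusted p = 0.0463 in edgeR). P4ha1, a collagen prolyl hydroxylase (0.34), and Egln3, an oxygen sensor (0.39), had unadjusted p-values of 0.0608 and 0.0955 in edgeR.

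**Figure D4:**
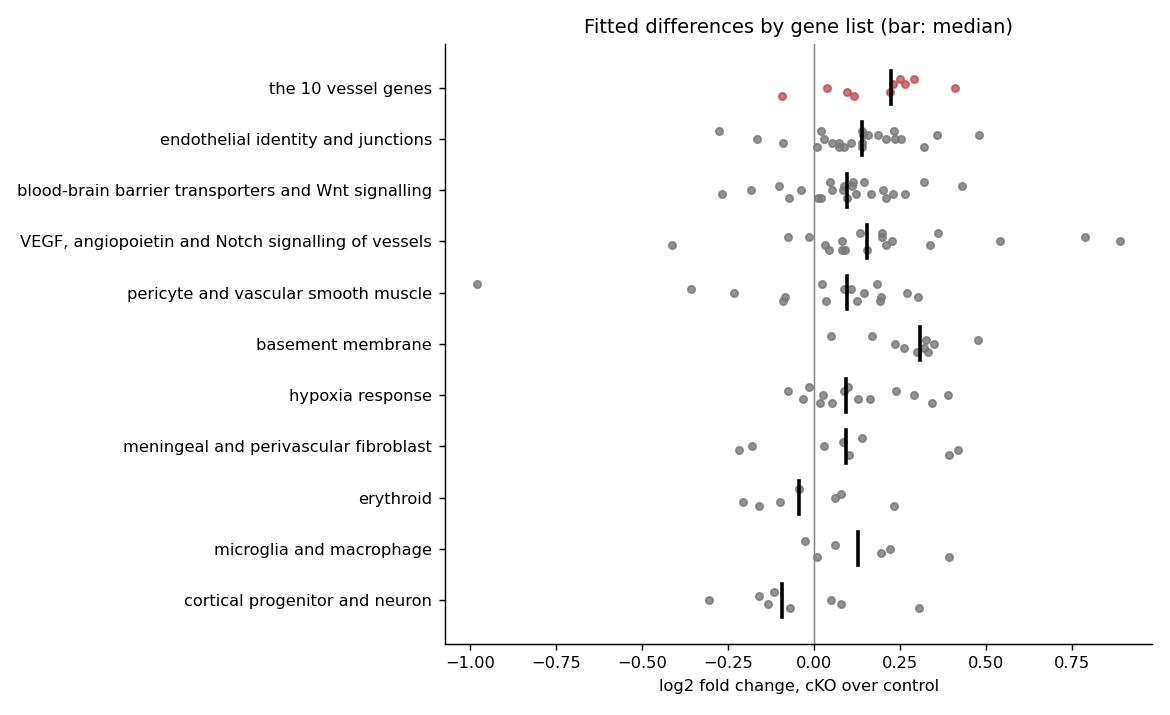
Log2 fold change, cKO over control (horizontal axis), of every tested gene of the 10 vessel genes (red) and of the lists of wider vessel genes and of other cells (grey points), with the median of each list as a black bar. The medians of the vessel lists and the hypoxia response list lie between 0.09 and 0.31, and that of cortical progenitor and neuron genes at -0.09.

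Other cell types of the dissected tissue were read beside these lists, and their part in the vessel values was not tested. Meningeal and perivascular fibroblast genes, which also make basement membrane, summed to 37.1 to 39.3 CPM in the controls and 33.5 to 46.0 CPM in cKO, with 6 of 8 tested genes above 0 and none at an unadjusted or adjusted p under 0.05 in edgeR. Their median log2 fold change was 0.09 with all libraries, but 0.37 without control replicate 2, above that of every vessel list. Without that library 7 of 9 were above 0 and 1 was higher at an unadjusted p under 0.05 (5.51% of all genes). Their most abundant genes, Pdgfra and Col3a1, had log2 fold changes of -0.22 and 0.03 (-0.34 and 0.05 without control replicate 2), and like the endothelial genes the list was highest in cKO replicate 1. Pdgfra also marks oligodendrocyte precursors, so the sum of this list does not stand for fibroblasts alone. Erythroid genes, led by the globins Hbb-bs (0.06, or 0.20 without control replicate 2) and Hba-a1 (-0.16, turning to 0.03 without control replicate 2), summed to 986 to 1352 CPM in the controls and 1000.3 to 1219 CPM in cKO, with 3 of 7 above 0. Microglia and macrophage genes summed to 37.9 to 44.9 CPM in the controls and 42.3 to 45.9 CPM in cKO, with 5 of 6 above 0. Among them Csf1r was at 0.06 (0.18 without control replicate 2) and Cx3cr1 at 0.20. Cx3cr1 was 1 of 2 genes of this list with every cKO library above every control (7.35% of all genes). None of the list had an unadjusted p under 0.05 in edgeR. Choroid plexus genes summed to less than 1 CPM in every library, led by Kcnj13 and Clic6, and its defining marker Ttr had at most 1 count in a library. Cortical progenitor and neuron genes were lower in sum, at 4041 to 4175 CPM in the controls and 3512 to 3819 CPM in cKO, with Tubb3 at -0.31 (-0.15 without control replicate 2) and Neurod6 at -0.16. Of these 8 genes 3 were above 0, and 1 was higher at an unadjusted p under 0.05 (3.14% of all genes). That gene was Pax6 of radial glia, at 0.31 (unadjusted p = 0.0204 in edgeR), and none of the 8 had an adjusted p under 0.05.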

How the data were processed

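RNA-seq was analysed for 3 control and 3 cKO cortices at E18.5, grouped by the submitters' titles. The authors deposited 1 table of 27 columns, of which 18 were used: an expected (estimated) count, a TPM and an FPKM per library. The deposited expected counts are raw, and 89.4% were whole numbers. The authors' TPM and FPKM, which adjust for length and depth, served for description only. The submitters' processing notes name HISAT2 2.2.1, Bowtie2 2.4.5, RSEM 1.3.1 and GRCm38 (mm10). Annotation and strandedness are not given in the sources used here. The other columns hold gene identifiers and symbols and the authors' group means of these values, which were not used.

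Counts were rounded, filtered with filterByExpr, scaled by TMM and tested in R 4.3.3 by the quasi-likelihood method of edgeR 4.0.16, with Benjamini-Hochberg adjustment over 13570 genes and a threshold of 0.05. CPM values use TMM-scaled totals. Permutation tests were exact and two-sided (scipy 1.17.1). The interval level was 95% and the floor 3 counts, covering counting error only. The biological coefficient of variation common to all genes was 0.147. Replicates differed beyond sampling noise in every pair (chi-square over degrees of freedom 3.41 to 62.4). For length and GC content, 16781 genes (96.7%) had a longest transcript in GENCODE M21, and the correction removed a smooth trend per library (mgcv 1.9.3). Figures were drawn with matplotlib 3.10.9.

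On simulated counts for control against cKO (13491 genes tested), the fit found 33.8% of genes changed 1.5-fold, 71.6% changed 2-fold and 100% changed 4-fold, with 11 false calls. Alternatives were RLE factors, DESeq2 1.42.0, other filters on low counts, the replicate number as a block, correction for length and GC alone or with that block, TMM factors computed with ribosomal and translation factor genes left out, the authors' TPM, and each library left out. Overlap without control replicate 2 was added after seeing the data. The genes and lists were chosen with earlier results of these data known. Named were the 10 genes, Ybx1, the 3 smallest p-values per wider list, the 2 most abundant genes per list of other cells and the 5 genes most like the 10. Other names (Nid2, Lamc1, Lama4, Lamb1, Sparc, Vegfa, Slco1a4, Pax6, Ttr, the contractile genes and the neighbours of Ybx1) were chosen after their values were seen.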

Additional observations from a re-analysis of the deposited data

How the results depend on the processing

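The 10 vessel genes had 0 adjusted p-values under 0.05 in all 14 alternatives, as did the wider lists. Over 140 fold changes of the 10 genes under the alternatives, 132 kept their direction. The 8 others were in Cldn5 and Abcb1a: corrected for length and GC, Cldn5 was 0.081 and Abcb1a -0.036, and with the replicate block added 0.078 and -0.035. With single libraries left out, Cldn5 lay between -0.25 (without control replicate 3) and 0.23 (without control replicate 2), and Abcb1a between -0.080 (without control replicate 2) and 0.26 (without control replicate 3). The number of all genes with an adjusted p under 0.05 was 10, but 152 with the length and GC correction, 161 with it and the replicate block, and 93 in DESeq2. Leaving out single libraries gave 8 to 122, with 122 without control replicate 2 and 19 without control replicate 3. Of the 10 vessel genes, 2 had an unadjusted p under 0.05 (3.14% of all genes higher). With no filter on low counts 1 had, in DESeq2 1, and corrected for length and GC within the block 4. The share of all genes at that p was not taken in these alternatives, so their counts cannot be compared. Leaving out single libraries gave 1 to 3 genes at that p. The share of all genes higher was 1.66% without cKO replicate 1 and 5.51% without control replicate 2. The median log2 fold change of the 10 was then 0.091 (without cKO replicate 1) to 0.30 (without cKO replicate 2), against 0.23 with all. The difference in the pericyte to endothelial ratio lay between -0.0018 (without cKO replicate 3) and 0.21 (without control replicate 3), and without Rgs5 or by TPM it was 0.08 and 0.17. Ybx1 lay between -5.56 and -5.33 with single libraries left out. The cause of these changes was not tested.

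The replicate numbers were not treated as pairs: same-numbered libraries deviated together with r = 0.076, 0.043 and 0.206, and not every library correlated best with its own number. With the replicate block alone, 11 of all genes and 0 of the 10 vessel genes had an adjusted p under 0.05, and 3 of the 10 an unadjusted one. The share of all genes at that unadjusted p was not taken. In the simulation 33.8% of 1.5-fold changes were found, over genes of all levels and without the length trends of the real libraries. The largest fold among the vessel genes, 1.33, was not simulated, so the power to find it was not measured. The lack of calls therefore does not show that no difference was present.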
